A study of Mus musculus with 45 samples.

Results

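Late culture in Fgf2 and ActivinA was compared with early culture in the same medium. The medium, called FA here, is serum-free N2B27 with Fgf2 and ActivinA, and cells grew in it as an adherent layer on gelatin (EpiSC in the sample labels). The cells were male E14tg2a embryonic stem cells (ESCs), wild type and of strain 129/Ola. Before transfer to FA they were kept in 2iL, which is N2B27 with the inhibitors CHIR99021 and PD0325901 and with LIF, or in SL, which is serum with LIF. The rule for the libraries uses condition and day from the labels, and no measured value. The 3 late libraries are FA day 7 from 2iL, FA day 5 from SL and FA day 7 from SL. The 4 early libraries are FA days 1 and 1.5 from 2iL and from SL. They make 7 of the 45 libraries of the series, and FA day 5 from 2iL was not analysed here. A further 6 FA libraries (days 2, 2.5 and 3 from each medium) served to time the changes. The same contrast was taken from 8 libraries in N2B27 without added factors (neural in the labels) and from 8 libraries of embryoid bodies in serum (EB).

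Fgf2 and ActivinA hold mouse pluripotent cells in a primed state that resembles the postimplantation epiblast, an epithelium. Activin and Nodal signal through Smad2 and Smad3 and induce their own antagonists, the Lefty proteins. Fgf signals through ERK, which induces its own inhibitors, among them the Sprouty and Dusp proteins. An epithelium that turns into mesenchyme usually loses E-cadherin and gains Vimentin, fibrillar collagens and contractile proteins. All of these statements are background from earlier work.

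The labels give 1 library per starting medium, condition and day. Days of the same phase therefore stood in for replicates, and p-values measure the spread between these libraries, which may be technical in part. E14tg2a is a single line. Between 14499396 and 19031786 reads were counted on genes in the 7 libraries. Values per library are in CPM, counts scaled to a common library total with TMM factors and not corrected for gene length. Changes are log2 values of late minus early with the standard error (SE) from the edgeR fit, in which the starting medium was a block. In every sentence with 3 late values the order is 2iL day 7, SL day 5 and SL day 7, and with 4 early values it is 2iL day 1, 2iL day 1.5, SL day 1 and SL day 1.5. Mitochondrial genes took 2.14% to 3.4% of reads in the early libraries and 1.33% to 1.54% in the late ones. The part of this difference in the results was not tested. In bulk RNA, a change in the share of cells that express a gene cannot be told apart from a change in RNA per cell.

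At the threshold of an adjusted p of 0.05, 7744 of 14512 genes tested differed between late and early FA (53.4%). Of all genes tested, 4049 rose (27.9%) and 3695 fell (25.5%). In 3917 genes every late value lay above every early one (27%), and in 4040 below (27.8%). The median over all genes was 0.01 on the log2 scale. Without one of the 3 late libraries at a time, 4862 of the 7744 genes kept their call and direction in all 3 fits (62.8%). With this background, a list in which about 1 gene in 2 passed is not set apart from the rest. Among the departures were mesenchymal and matrix genes, which rose, and pluripotency factors, which fell. Genes of surface ectoderm and epidermis (6 of 8 tested up, or 4 without any 1 SL library, none down) and of epithelial junctions (9 of 13 up, 1 down) departed too. So did DNA methylation enzymes (6 of 8 down, 1 up).

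Genes of contractile cells and of connective tissue made up most of the largest rises. The largest rises were taken among called genes without overlap between late and early libraries and with a late mean of at least 5 CPM. They were Col3a1, a fibrillar collagen, the precursor listed as AC125167.1, Acta2 (smooth muscle actin), Tnc (tenascin C), Bmp5, Col8a1, Postn (periostin) and Actc1 (cardiac actin). Acta2 was at 0.0635, 0.0633, 0.0586 and 0.108 CPM in the early libraries and at 160, 88.8 and 160 CPM in the late ones. Actc1 had 1 read over the 4 early libraries and 554 over the 3 late ones, at 10.4, 6.08 and 12.5 CPM. No late library overlapped with an early one for either actin, which the rule for naming the largest rises required. The fitted change of Acta2 was 10.78 ± 0.35 (SE, adjusted p = 4.3e-05). For Actc1 the late to early ratio of counts was 671, with a 95% counting interval of 120 to 26600.

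Promoters of actin and other contractile genes are known to carry CArG boxes, which bind serum response factor, a partner of actin-sensing coactivators. The 250 bases before the start of Actc1 (chr2:114052876-114053125, minus strand) and of Acta2 (chr19:34255374-34255623, minus strand) are shown because these actins rose from almost no reads. Both are RefSeq promoters on GRCm38.p6, written 5′ to 3′ along the gene. Capitals mark each CArG box, here CC, then 6 letters of which at most 1 is not A or T, then GG, a pattern that reads the same on both strands.
Actc1: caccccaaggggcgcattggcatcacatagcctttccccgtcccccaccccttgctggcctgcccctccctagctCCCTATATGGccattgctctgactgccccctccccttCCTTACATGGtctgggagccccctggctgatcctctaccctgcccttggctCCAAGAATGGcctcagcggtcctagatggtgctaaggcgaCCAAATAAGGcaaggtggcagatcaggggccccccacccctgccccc
Acta2: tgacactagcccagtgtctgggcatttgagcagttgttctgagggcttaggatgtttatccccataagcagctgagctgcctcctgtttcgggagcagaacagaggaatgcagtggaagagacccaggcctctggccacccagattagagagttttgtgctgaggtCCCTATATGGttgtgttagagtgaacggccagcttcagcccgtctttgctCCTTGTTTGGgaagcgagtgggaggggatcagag
Actc1 held 4 matches, which begin 175, 138, 87 and 47 bases before its start. The one at 47 has only A and T between CC and GG. Acta2 held 2 matches, at 84 and 34 bases, each with 1 other letter. Of 27025 genes with such a promoter sequence, 9.78% held at least 1 match and 1.62% a match with only A and T. The shares were 10.2% and 2% among the 2948 genes that rose, and 9.28% and 1.11% among the 2693 that fell. A match is a description of the letters and not a measured binding site.

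The other large rises were also in genes with few or no early reads. Col3a1 was at 0.19, 0.127, 0.0586 and 0.108 CPM early and at 551, 55.7 and 175 CPM late, a change of 11.28 ± 0.61 (adjusted p = 0.00015). AC125167.1 (chromosome 1, 45311673 to 45311813) lies within Col3a1 (45311538 to 45349706) on the same strand, so its reads cannot be told apart from those of the collagen. Tnc, a matrix protein of embryonic mesenchyme, was at 0.317, 0.0633, 0.293 and 0.324 CPM early and at 540, 136 and 343 CPM late (10.46 ± 0.54, adjusted p = 0.00012). Bmp5 and Col8a1 had no read in the early libraries. Against 3 reads over the early group, Bmp5 was at least 138-fold higher and Col8a1 at least 147-fold higher. Postn had 1 early read and 561 late ones, a ratio of 680 (95% counting interval 122 to 26900). SL day 5 was the lowest late library for each of these genes, and the lowest for 2060 of the 3607 genes that rose without overlap (57.1%). Of the same genes, 1345 were highest in 2iL day 7 (37.3%) and 1479 in SL day 7 (41%).

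**Figure D1:**
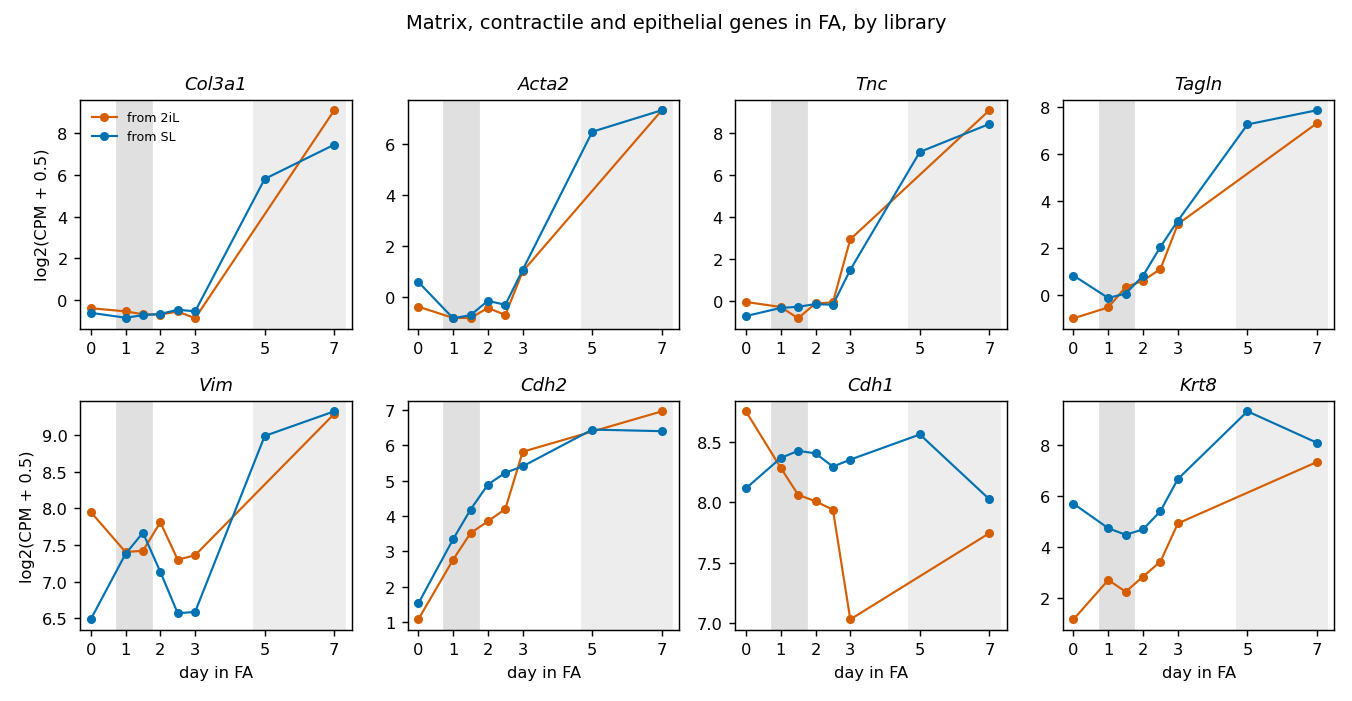
Expression of 8 matrix, contractile and epithelial genes in FA, as log2(CPM + 0.5) against the day, 1 point per library, from 2iL (orange) and from SL (blue). Grey bands mark the early and late days. Col3a1 stayed near the floor up to day 3 and stood at 55.7 to 551 CPM late, while Cdh1 stayed between 130 and 432 CPM throughout.

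Of 13 listed genes of paraxial mesoderm and mesenchyme 10 were tested, and the rest were below the filter on low counts. Of the 10, 9 rose and 1 fell, with a median change of 4.62. Members with almost no early reads, such as Acta2 and Postn, passed the filter through the late libraries. They could enter the count only as rises, so the count and the median are fixed in part. The summed level of the list was 32.1 to 38.4 CPM in the early libraries and 289 to 463 CPM in the late ones. Tagln (transgelin, an actin-binding protein of smooth muscle) was at 0.19, 0.76, 0.41 and 0.54 CPM early and at 160, 154 and 235 CPM late (8.56 ± 0.31, adjusted p = 4.9e-05). Foxc1, a transcription factor of paraxial mesoderm and mesenchyme, rose from at most 0.19 CPM to 10.8, 7.57 and 11.5 CPM. Prrx1, a factor of limb and craniofacial mesenchyme, spread more widely, with 40.7, 1.22 and 5.06 CPM late against at most 0.162 CPM early. Meox1 and Pdgfrb, the latter a growth factor receptor of mesenchymal cells, rose by 2.71 and 2.11. Tcf15, also called paraxis, was the member that fell, from 22 to 30.5 CPM to 5.04, 10.5 and 3.55 CPM. Some mesoderm genes were almost silent, with Mesp1 at 0, 0 and 0.101 CPM late, Msgn1 at 0, 0 and 0.0506 CPM, and Pax1 at 0.048, 0.0676 and 0 CPM.

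Among genes that mark the transition from epithelium to mesenchyme, 10 of 13 rose, none fell and 3 did not pass. Vim, the intermediate filament of mesenchyme, was at 169, 171, 166 and 203 CPM early and at 625, 507 and 640 CPM late (1.76 ± 0.12, adjusted p = 0.00027). Cdh2 (N-cadherin) rose from 6.28, 10.9, 9.62 and 17.6 CPM to 124, 86.5 and 83.8 CPM. Cdh11, the cadherin of mesenchymal cells, reached 136, 10.9 and 32.3 CPM from at most 0.704 CPM. No late value of these 3 genes lay within the early range. The repressors of E-cadherin did not move together. Zeb2 rose to 76.9, 35.9 and 69.6 CPM from 3.62 to 13.7 CPM, Twist1 rose by 2.24, and Zeb1 was at 37, 18.2 and 33.3 CPM against 19.2 to 47.9 CPM (-0.02 ± 0.25, adjusted p = 0.95). Snai1 was at 1.06, 1.22 and 1.16 CPM, within the early range of 0.0633 to 2.11 CPM. The collagen crosslinking enzyme Lox rose by 3.01, a call that was lost without 2iL day 7 (1.70, adjusted p = 0.12), without 2iL day 1.5 (adjusted p = 0.067) or without SL day 1 (adjusted p = 0.059).

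Cdh1 (E-cadherin) did not pass the test, with 312, 267, 330 and 344 CPM early and 214, 378 and 260 CPM late (-0.19 ± 0.15, adjusted p = 0.33). Without SL day 5, its highest late library, it fell by 0.39 (adjusted p = 0.0135). Of the 13 epithelial junction genes, 9 rose and 1 fell. The claudins Cldn7 and Cldn4, sealing proteins of tight junctions, rose by 3.85 and 2.67, and Cldn6 rose to 73.6, 189 and 94.1 CPM from 2.72 to 41.9 CPM. Cldn4 was at 12.1, 11, 11.3 and 11 CPM early and at 39.7, 136 and 63.7 CPM late. Esrp1, an epithelial splicing factor, rose from 5.2 to 22.5 CPM to 41.5, 47.8 and 38.4 CPM. Grhl2, a transcription factor of epithelia, fell from 33.3 to 56 CPM to 18.3, 25.9 and 14.6 CPM. Genes of epithelial junctions and of mesenchyme thus rose in the same libraries.

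The simple-epithelium keratins rose with them. Krt8 was at 6.03, 4.24, 26.3 and 21.9 CPM early and at 163, 650 and 275 CPM late (4.57 ± 0.34, adjusted p = 0.00029). Its partner Krt18 was at 3.11, 4.43, 18.8 and 21.9 CPM early and at 172, 477 and 291 CPM late. Krt19 and Krt7 rose by 5.42 and 5.73. SL day 5 was the highest late library for all 4 keratins, while it was the lowest for Col3a1 and Tnc. Sfn (stratifin), an epithelial 14-3-3 protein, followed the keratins with 15.2, 84.9 and 41.3 CPM against 2.72 to 8.85 CPM. In all, 6 of the 8 tested genes of surface ectoderm and epidermis rose and none fell, out of 12 listed. The rises were 4 without any 1 of the SL libraries. The summed level of the list was 25.1 to 73.3 CPM early and 376 to 1320 CPM late. Among 6 trophoblast genes 4 rose and 1 fell, with 2 rises left without SL day 5. The defining keratins of epidermis, Krt5 and Krt14, were at or below 0.0676 CPM in the late libraries, and Trp63 at or below 0.576 CPM. All of them were below the filter on low counts and not tested.

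Of the 19 collagen and basement membrane genes, 14 rose and 2 fell. Col1a1 and Col1a2, the chains of type I collagen, rose by 6.54 and 6.64, to 94.6, 11.4 and 85.8 CPM and to 40, 23.6 and 75.1 CPM. Col5a1, which nucleates collagen fibrils, rose by 2.90 ± 0.17 (adjusted p = 0.00016), to 106, 92.5 and 141 CPM from 14.5 to 17.5 CPM. Col2a1, the collagen of cartilage and notochord, rose from 5.75 to 10.3 CPM to 164, 53 and 147 CPM. Among basement membrane genes, Lama5, Hspg2 and Sparc rose by 1.03, 1.13 and 1.49, while Lamc1 was at 281, 357 and 364 CPM late and at 324 to 412 CPM early (-0.10 ± 0.13, adjusted p = 0.53). Fibrillar collagens thus changed by more than the laminin chains in these libraries. The 2 calls in the other direction, Col18a1 (-0.38) and Nid2 (-0.87), were both lost without 2iL day 7 (adjusted p = 0.246 and 0.111) or without SL day 7 (adjusted p = 0.091 and 0.059). Col18a1 was also lost without 2iL day 1.5, 2iL day 1 or SL day 1.5 (adjusted p = 0.0825, 0.0632 and 0.121), and Nid2 without SL day 1 (adjusted p = 0.063).

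**Figure D2:**
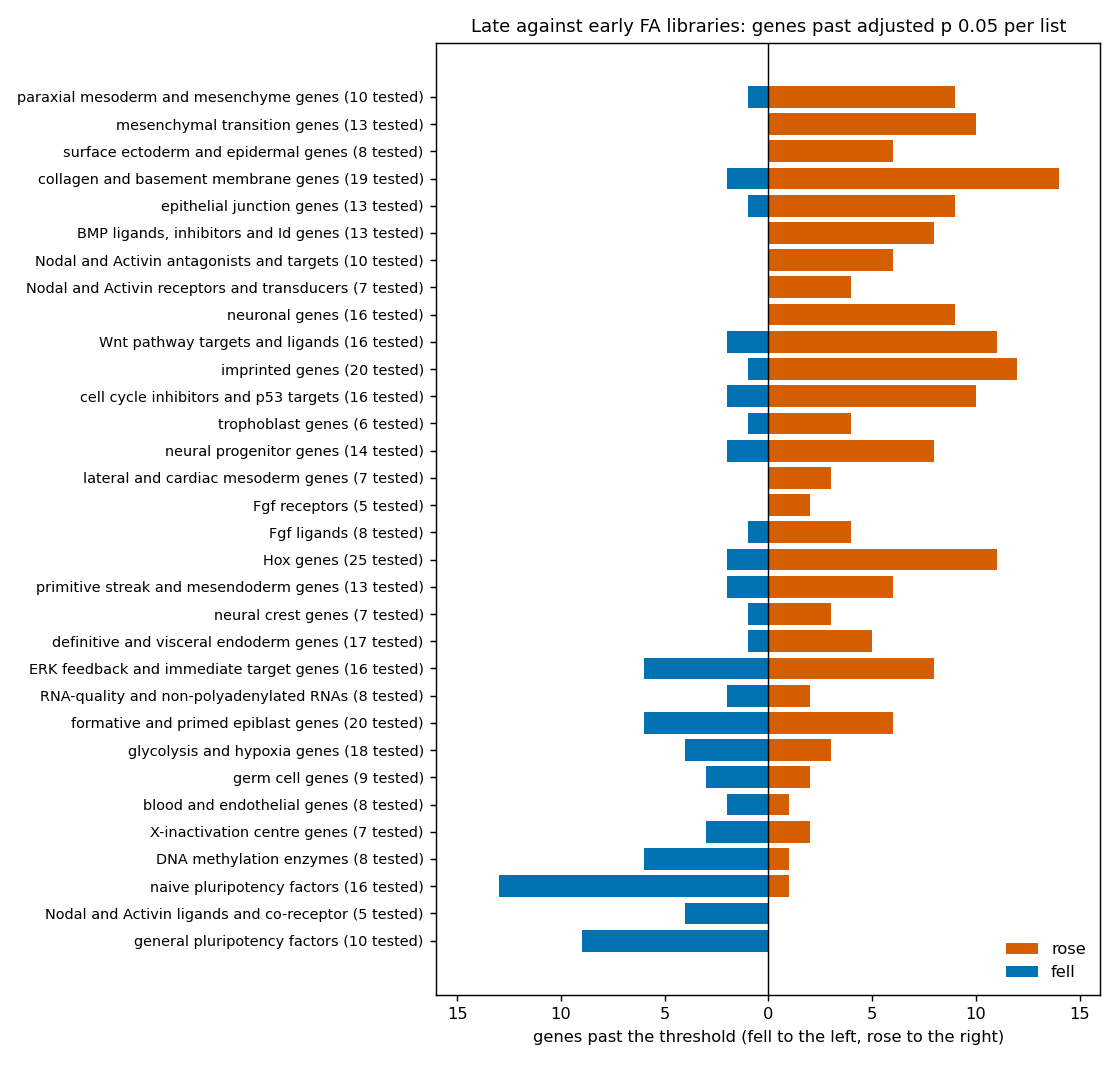
Number of genes per list that rose (right, orange) or fell (left, blue) between early and late FA at an adjusted p of 0.05, with the number tested beside each list name, ordered by the net share of tested genes that rose. Paraxial mesoderm and mesenchyme genes stand at the top with 9 of 10 up, and general pluripotency factors at the bottom with 9 of 10 down. The top place is fixed in part, since members with almost no early reads passed the filter through the late libraries.

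Naive pluripotency factors, which sustain ESCs in 2iL, were lower in late FA. Of 16 genes 13 fell, 1 rose and 2 did not pass. Esrrb was at 316, 150, 173 and 57.4 CPM early and at 20.1, 24.1 and 23.5 CPM late (-2.72 ± 0.51, adjusted p = 0.0044). Zfp42 (Rex1) was at 334, 127, 221 and 77.2 CPM early and at 12, 23.2 and 11.3 CPM late. Nr0b1, Tcl1 and Nr5a2 fell by 4.63, 4.22 and 3.37. Every late library lay below every early one for these genes. The member that rose was Stat3, the transducer of LIF signals, by 0.61 (adjusted p = 0.038). That call was lost without any 1 of 5 libraries (2iL day 1.5, 2iL day 7, SL day 1.5, SL day 1 and SL day 7, with adjusted p of 0.0855, 0.0515, 0.109, 0.0797 and 0.0982).

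Nanog and Dppa3 were the naive factors that did not pass. Dppa3 was at 1.97, 0.541 and 0.456 CPM late against 0.586 to 1.65 CPM early (-0.05, adjusted p = 0.93). Nanog was at 249, 63.4, 192 and 76.6 CPM early and at 194, 85.5 and 200 CPM late, and the change was 0.21 ± 0.53 (adjusted p = 0.76). In the day 0 libraries of this time course it was at 1010 CPM in 2iL and 608 CPM in SL. After that it reached its lowest value at day 1.5 from 2iL (63.4 CPM) and at day 2 from SL (60.7 CPM), and was at 181 and 148 CPM at day 3. Late Nanog thus lay within the range of days 1 and 1.5 and below day 0, while Esrrb remained at 20.1 to 24.1 CPM.

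The general pluripotency factors fell together, with 9 of 10 past the threshold and 9 in each fit that left out a library. Pou5f1 (Oct4) was at 617, 534, 647 and 571 CPM early and at 161, 248 and 210 CPM late (-1.55 ± 0.13, adjusted p = 0.00039). Sox2 fell from 208, 140, 154 and 99.6 CPM to 75.8, 65.7 and 67.8 CPM (adjusted p = 0.0056). The largest fall was in Dppa2, a chromatin factor of early embryos, from 276, 232, 275 and 229 CPM to 6.86, 30.3 and 6.28 CPM. Dppa4, its partner, fell by 2.73. Lin28a, which blocks let-7 maturation, was at 423, 475 and 427 CPM late and at 193 to 503 CPM early (0.37, adjusted p = 0.18).

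**Figure D3:**
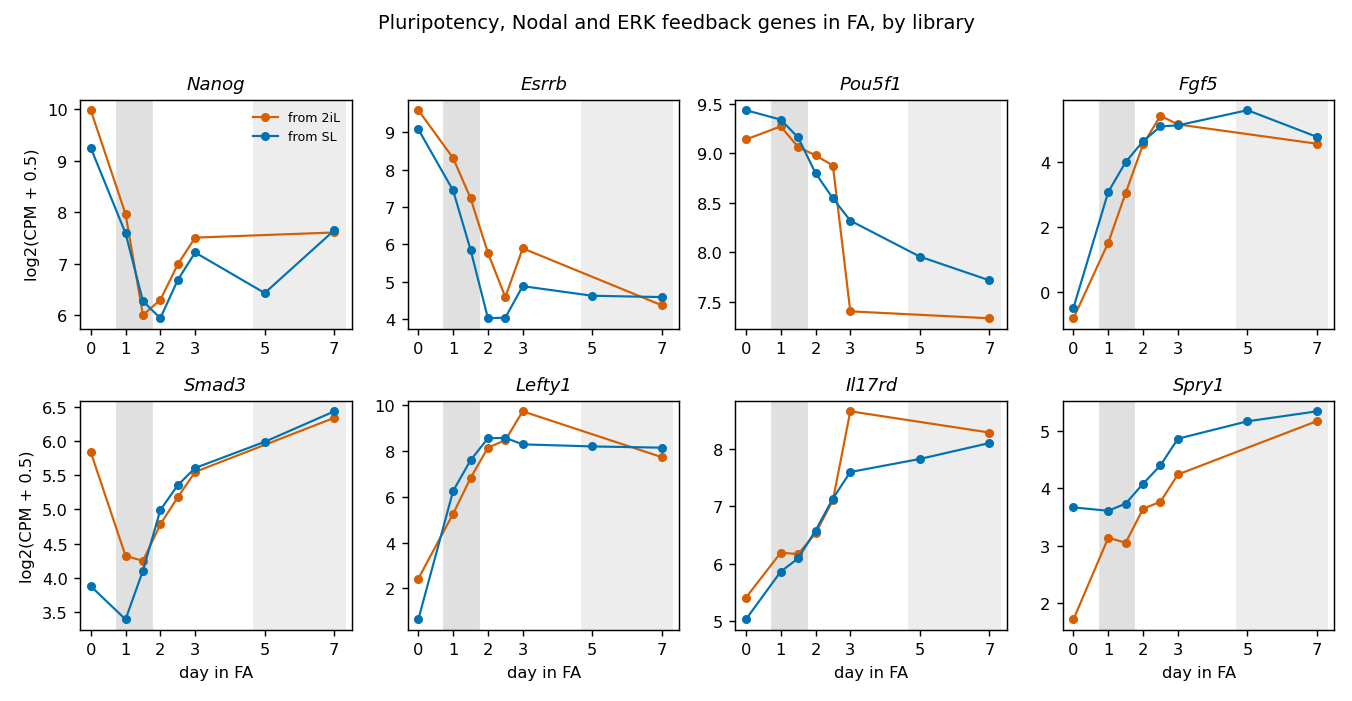
Expression of 8 pluripotency and signalling genes in FA, as log2(CPM + 0.5) against the day, 1 point per library, from 2iL (orange) and from SL (blue), with grey bands on the early and late days. Pou5f1 declined to 161 to 248 CPM, Nanog returned to 85.5 to 200 CPM after its low at days 1.5 and 2, and Il17rd, Spry1 and Smad3 rose.

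Genes of the formative and primed epiblast were split, with 6 of 20 up, 6 down and 8 not past the threshold. These counts are near the shares over all genes tested, 27.9% up and 25.5% down. Fgf5, the ligand that marks postimplantation epiblast, was at 2.35, 7.73, 7.91 and 15.4 CPM early and at 23, 47.6 and 26.7 CPM late (1.91 ± 0.43, adjusted p = 0.0085). The call was lost without 2iL day 7 (1.71, adjusted p = 0.057). Otx2 was at 24.5, 45.3 and 23.2 CPM late and at 21.5 to 41.9 CPM early (0.04, adjusted p = 0.92). Foxd3 fell to 1.87, 8.18 and 3.09 CPM from 20.3 to 28.1 CPM, Etv5 fell by 0.95, and Dnmt3b was at 436, 597 and 342 CPM late against 320 to 766 CPM early (-0.19, adjusted p = 0.59). Measured against the EpiSC label, the late libraries expressed Pou5f1, Fgf5, Otx2 and Nanog, but so did the early ones. Of these genes only Fgf5 rose. Pou5f1 fell (-1.55), and Otx2 and Nanog, the latter listed here as a naive factor, did not pass (adjusted p = 0.92 and 0.76). Apart from Fgf5, these expressed markers thus did not set late FA apart as more primed than early FA. Esrrb and Zfp42 were lower in the late libraries than in the early ones. The late libraries also carried the mesenchymal genes described above.

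Among genes of Nodal and Activin signalling, the calls were falls for ligands and rises for receptors and transducers. Of 5 ligand and co-receptor genes 4 fell, a count that went to 2 without 2iL day 7, SL day 1 or SL day 7. Gdf3, a Nodal-related ligand, was at 84.5, 73.8, 48.8 and 46.4 CPM early and at 12.6, 16.2 and 7.75 CPM late (-2.23 ± 0.28, adjusted p = 0.00099). Tdgf1 (Cripto), the Nodal co-receptor, fell from 191, 203, 276 and 289 CPM to 40.3, 106 and 100 CPM. Neither gene overlapped between the groups. Nodal itself was at 58.7, 46.6, 67.5 and 55.3 CPM early and at 27.5, 56 and 34.5 CPM late. Its groups overlapped, and its change of -0.60 ± 0.21 (adjusted p = 0.046) was lost without 2iL day 7 (-0.41, adjusted p = 0.24), SL day 7 (0.13), SL day 1 (adjusted p = 0.115), 2iL day 1 (0.079) or 2iL day 1.5 (0.072). It was also lost without the block for starting medium (adjusted p = 0.13).

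Of the 7 receptors and transducers 4 rose and none fell. Smad3, a transducer of Activin signals, was at 19.5, 18.5, 10 and 16.7 CPM early and at 80.5, 63 and 86 CPM late, with a change of 2.35 ± 0.21 (adjusted p = 0.0004). Smad2, which transduces the same signals, was at 82.3, 81.9 and 64.6 CPM late against 87.5 to 94.1 CPM early (-0.21 ± 0.11, adjusted p = 0.15). Smad4, their shared partner, and the receptor Acvr2a rose by 0.60 and 0.91. Acvr1b, the type I receptor, rose by 0.62, a call lost without 2iL day 7 (0.47, adjusted p = 0.084). Foxh1, the DNA-binding partner of the Smads, was at 25.5, 54.7 and 39.3 CPM late and 41.4 to 62.2 CPM early (adjusted p = 0.42).

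Among antagonists and targets 6 of 10 rose and none fell, but 3 of them without 2iL day 7. Fst (follistatin), which binds Activin, was at 3.81, 1.2, 2.11 and 1.84 CPM early and at 36.7, 29.1 and 42.4 CPM late (4.08 ± 0.36, adjusted p = 0.00039). Cer1, an antagonist of Nodal and BMP, was at 1.68, 17.8 and 4 CPM late and at most 1.13 CPM early. At day 3 Cer1 was higher than in these late libraries, at 23.2 CPM from 2iL and 37.4 CPM from SL. Lefty1, the feedback inhibitor of Nodal, was at 37.8, 112, 75.9 and 193 CPM early and at 212, 294 and 283 CPM late. Its rise of 1.30 ± 0.41 (adjusted p = 0.033) was lost without 2iL day 7 (1.15, adjusted p = 0.16), SL day 1 (0.085), SL day 5 (0.061) or SL day 7 (0.067). At day 3 Lefty1 was at 853 CPM from 2iL and 313 CPM from SL. Lefty2 was at 40.9, 140 and 57.3 CPM late and overlapped with the early range of 32.4 to 94.5 CPM (0.22, adjusted p = 0.77). The lower ligand levels and the higher Fst and Smad3 levels were thus found in the same libraries.

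Fgf4, the Fgf ligand that ESCs make themselves, was the ligand that fell, from 148, 97.2, 164 and 107 CPM to 11.3, 28.3 and 12.6 CPM (-2.97 ± 0.37, adjusted p = 0.00093). Of the 8 ligands tested 4 rose, or 2 without 2iL day 7. Fgf8, a ligand of the primitive streak, rose from 0.254, 0.697, 0.235 and 1.57 CPM to 9.74, 6.49 and 10.6 CPM. Fgfr1, the main Fgf receptor of the epiblast, was at 88.9, 94.6, 74.5 and 77.4 CPM early and at 167, 130 and 180 CPM late (0.99 ± 0.12, adjusted p = 0.00095). Fgfr2 was at 51.1, 58.6 and 39.6 CPM late within or near the early 29.5 to 54.5 CPM (adjusted p = 0.69). Fgfrl1, a receptor without a kinase domain, was the other of 2 receptors that rose, by 0.85, and its call was lost without SL day 1 (0.61, adjusted p = 0.053) or SL day 7 (0.82, adjusted p = 0.054).

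Feedback and target genes of ERK went both ways, with 8 of 16 higher and 6 lower. The number higher was 4 without SL day 1.5 or SL day 7. Il17rd (Sef), a membrane inhibitor of Fgf signalling, was at 72.6, 71.4, 57.7 and 67.7 CPM early and at 311, 226 and 274 CPM late (2.07 ± 0.10, adjusted p = 0.00011). Spry1, a Sprouty inhibitor, rose from 8.31, 7.79, 11.7 and 12.8 CPM to 35.5, 35.4 and 40 CPM (1.86 ± 0.15). Dusp6, the phosphatase of ERK, rose by 0.85 ± 0.20 to 190, 365 and 235 CPM from 109 to 187 CPM. Fos, an immediate early gene, rose by 3.55, to 5.9, 8.31 and 9.17 CPM. Their late values all lay above their early ones.

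The genes that fell within the same list were Spry4, Spred2, Etv5, Etv1, Etv4 and Myc. Spry4, another Sprouty, fell from 79.8, 81.9, 149 and 124 CPM to 28.8, 72.7 and 27.2 CPM (-1.44 ± 0.31, adjusted p = 0.0073). Etv5, a transcription factor downstream of Fgf, fell from 481, 407, 438 and 344 CPM to 197, 235 and 200 CPM, and Etv1 fell by 0.80. Etv4 fell by 1.18, a call lost without 2iL day 7 (-0.70, adjusted p = 0.089) or SL day 7 (-1.08, adjusted p = 0.062). Sprouty genes and Etv genes, all of them ERK targets, therefore did not share a direction.

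Wnt and BMP genes were mostly higher. In the Wnt list 11 of 16 rose and 2 fell, with 7 that rose without 2iL day 7 or SL day 1. Of the falls, that of Lef1 (-1.61) was lost without 2iL day 7 (-1.51, adjusted p = 0.148) or without 2iL day 1.5, SL day 1.5, SL day 1 or SL day 7 (adjusted p of 0.0576 to 0.127). Sfrp1, a secreted Wnt inhibitor, went from 11.1, 5.57, 16.1 and 14.7 CPM to 53.1, 54.2 and 54.3 CPM (2.19 ± 0.26). The ligands Wnt3, Wnt4 and Wnt5a rose by 3.73, 3.85 and 3.44, and stood at 3.12 to 13.3 CPM late. The target and inhibitor Nkd1 rose by 2.42. Axin2, the most general target of beta-catenin, was at 25.7, 16.1 and 15.2 CPM late against 17.2 to 30.7 CPM early (-0.23, adjusted p = 0.5). Without 2iL day 7, Axin2 fell by 0.73 (adjusted p = 0.034). Notum, which inactivates Wnt ligands, fell from 48.1, 28.6, 11.8 and 5.29 CPM to 0.768, 1.82 and 0.709 CPM. Of 13 BMP genes 8 rose and none fell. The ligand Bmp7 went from 0.756 to 2.17 CPM to 16.6, 7.43 and 14.6 CPM, the inhibitor Nog rose by 4.76 and the target Id2 by 2.30. Id1 and Id3 rose by 1.87 and 1.57, and both calls were lost without 2iL day 7 (1.15, adjusted p = 0.14, and 1.67, adjusted p = 0.051).

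Markers of the primitive streak were present at low levels and most strongly in SL day 5. T (Brachyury) rose from 0.825, 0.0633, 1.52 and 1.03 CPM to 3.74, 9.39 and 8.71 CPM (2.94 ± 0.51, adjusted p = 0.0031). Eomes, a factor of streak and endoderm, was at 13.3, 58.4 and 9.27 CPM late against 11.7 to 19.7 CPM early (0.71, adjusted p = 0.32). Mixl1 was at 0.48, 7.91 and 0.76 CPM and Lhx1 at 3.84, 19.7 and 2.79 CPM, and neither passed. SL day 5 was the highest late library for all 4 genes. In the list 6 of 13 rose and 2 fell, which became 10 rises without SL day 7, and 0 falls without 2iL day 7 or SL day 1.

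Genes of extraembryonic endoderm separated the early libraries by starting medium. Cubn (cubilin), a receptor of visceral endoderm, was at 1.46, 11.3, 632 and 597 CPM early and at 67.8, 188 and 41.9 CPM late (0.09 ± 1.54, adjusted p = 0.97). Its adaptor Dab2 was at 0.635, 2.72, 133 and 132 CPM early and at 70.9, 120 and 50.3 CPM late. Early libraries from SL thus carried these genes at 132 CPM or more, and the summed level of the list was 25.4 to 911 CPM early and 302 to 605 CPM late. The part of this difference in other results from SL was not tested. Afp and Ttr, secreted proteins of visceral endoderm, were at or below 6.89 CPM late. Of 17 endoderm genes 5 rose and 1 fell, beside 27.9% up and 25.5% down over all genes tested. Trh (thyrotropin-releasing hormone) rose from 9.77, 11.3, 24.5 and 29.5 CPM to 128, 196 and 258 CPM (3.31 ± 0.17, adjusted p = 0.00011), and the chemokine receptor Cxcr4 rose by 3.60. Gata6 fell by 2.41, with 8.82, 18.8, 49.5 and 44.7 CPM early and 3.22, 10.9 and 4.3 CPM late, values that overlapped between the media.

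Defining markers of heart muscle and blood were low. The cardiac genes Nkx2-5, Tbx5, Myl7 and Tnnt2 were below the filter on low counts, at or below 0.676 CPM late. The embryonic globins Hbb-bh1 and Hba-x were at or below 0.048 CPM late. Pecam1, an adhesion protein of endothelium that ESCs also express, fell from 136, 78.8, 103 and 54.3 CPM to 4.56, 6.76 and 3.75 CPM. Of 8 blood and endothelial genes 1 rose and 2 fell, beside 27.9% up and 25.5% down over all genes tested. The rise was of Runx1, a blood factor also found in other tissues, at 0.127, 1.01, 7.5 and 7.08 CPM early and 8.83, 23.7 and 11.6 CPM late (2.23, adjusted p = 0.022). It was lost without 2iL day 1.5 (adjusted p = 0.065), 2iL day 7 (1.31, adjusted p = 0.107) or SL day 5 (adjusted p = 0.0541), and without the block (adjusted p = 0.139). Cardiac actin, Actc1, rose as described above. Of the lateral and cardiac list 3 of 7 rose, with Hand1 and Tbx20 up by 2.10 and 2.09, at 2.64 to 4.61 CPM.

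Neural genes rose in number but unevenly between libraries. Of 14 tested progenitor genes 8 rose and 2 fell (1 without 2iL day 1.5, 2iL day 7 or any early or late SL library but SL day 7), and of 16 neuronal genes 9 rose and none fell. Without 2iL day 7 or without SL day 7 the rises were 6 and 7. Nes (nestin), an intermediate filament of progenitors, was at 14.6, 14.4, 6.51 and 17.8 CPM early and at 196, 132 and 189 CPM late (3.76 ± 0.32). The other large rises were highest in 2iL day 7. Fabp7, a lipid carrier of radial glia, stood at 58.3, 1.22 and 1.82 CPM, Dcx (doublecortin), a marker of young neurons, at 41.6, 0.946 and 2.68 CPM, and Zic1 at 44, 3.51 and 19.3 CPM. Map2, a dendritic protein, was at 72.9, 13 and 16 CPM late and 0.762 to 3.73 CPM early (3.85 ± 0.81, adjusted p = 0.0067). Pax6 was at 20.9, 2.97 and 10.4 CPM late against 5.13 to 15.6 CPM early (adjusted p = 0.67), and Tubb3 at 58.9, 17.3 and 25.7 CPM against 25.2 to 42.3 CPM (adjusted p = 0.96). Among neural crest genes 3 of 7 rose, or 6 without SL day 5. Ets1 went from 0.889, 2.85, 7.91 and 10.6 CPM to 50.8, 55.7 and 62.4 CPM, while the defining crest factor Sox10 was at 0.48, 1.28 and 1.72 CPM late.

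Imprinted genes, which are expressed from 1 parental allele, were mostly higher. Of 20 tested 12 rose (9 without SL day 1) and 1 fell (Phlda2, whose call was lost in 5 of the 7 fits with 1 library left out). The summed level of the list was 1600 to 2390 CPM early and 3580 to 8500 CPM late. Mest was at 250, 332, 137 and 147 CPM early and at 2140, 533 and 838 CPM late (2.55 ± 0.21, adjusted p = 0.00034). Peg3, a zinc finger protein, was at 125, 147, 129 and 116 CPM early and at 1510, 408 and 599 CPM late. Igf2, a fetal growth factor, reached 65.1, 100 and 310 CPM from 0.444 to 17.3 CPM (4.44 ± 0.60). H19, the noncoding neighbour of Igf2, was at 1330 CPM in 2iL day 7 and at 15.8 and 25.1 CPM in the SL libraries, against 8 to 43.3 CPM early. Grb10 showed the opposite split, with 105, 841 and 1030 CPM late against 108 to 305 CPM early. Neither passed edgeR's test with all 7 libraries and the block (adjusted p = 0.085 and 0.0501). With all 7, both passed by DESeq2 (adjusted p = 0.0392 and 0.0354) and without the block (adjusted p = 0.0373 and 0.0494), and Grb10 also with no filter (0.0451) and with library totals alone as scaling (0.0429). H19 passed without SL day 5 (4.02, adjusted p = 0.042), and Grb10 without 2iL day 7 (2.01, adjusted p = 0.0044) or 2iL day 1 (1.35, adjusted p = 0.046).

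Whether the late change differed by starting medium was tested as an interaction. No gene passed of 14512 by edgeR's quasi-likelihood test (0%), while 1342 had an unadjusted p under 0.05 (9.25%) and DESeq2 called 196. From 2iL there was a single late library, so a difference between media cannot be told apart from a difference of that library.

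DNA methylation enzymes were lower, with 6 of 8 down and 1 up. Dnmt3l, a cofactor of the de novo methyltransferases, fell from 448, 626, 380 and 409 CPM to 21.9, 55.9 and 15 CPM (-3.88 ± 0.52, adjusted p = 0.0012). At day 0 Dnmt3l was at 3.92 CPM in 2iL and 285 CPM in SL. Tet1 and Tet2, which oxidise methylcytosine, fell by 2.20 and 2.81, and Tet3 rose by 1.21. The maintenance factors Uhrf1 and Dnmt1 fell by 1.09 and 0.47. Dazl, a germ cell RNA-binding protein whose promoter is methylated in somatic cells, fell from 83.5, 47.8, 62.5 and 39.2 CPM to 0.912, 6.35 and 1.16 CPM. In these male cells Xist, the RNA that silences an X chromosome, was at 1.4, 9.94, 2.05 and 4.65 CPM early and at 0.288, 0.743 and 0.304 CPM late. Its fall of 3.23 (adjusted p = 0.017) was lost without 2iL day 7 (-2.67, adjusted p = 0.087), SL day 1.5 (-3.02, adjusted p = 0.053) or SL day 7 (-3.07, adjusted p = 0.06). At day 0 Xist was at 0.0665 CPM in 2iL and 1.21 CPM in SL, and at day 2 at 11.2 and 2.79 CPM. Tsix, its antisense partner, fell by 2.53 ± 0.43 (adjusted p = 0.003), from 9.9, 7.35, 5.39 and 4.59 CPM to 1.06, 1.62 and 0.506 CPM.

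Cell cycle genes rose on both sides of the cycle's control. In a list of 16 inhibitors, p53 targets, D cyclins and Myc genes 10 rose and 2 fell, of which 1 was called without 2iL day 1.5, 2iL day 7, SL day 1 or SL day 5. Cdkn1a (p21) was at 16.7, 16.6, 10.1 and 12.6 CPM early and at 58.7, 53.9 and 54.2 CPM late (2.11 ± 0.14, adjusted p = 0.00026). Cdkn2b (p15) rose from 1.59, 2.09, 1.47 and 2.21 CPM to 6.96, 10.7 and 8.05 CPM, and Cdkn2a and Ccng1 rose by 1.26 and 1.17. Cdkn1c did not pass (-0.63, adjusted p = 0.15), and the rise of Cdkn1b (0.82, adjusted p = 0.039) was lost in each fit with 1 library left out but that without SL day 5 (adjusted p of 0.0567 to 0.134). Genes that promote the cycle rose too, with the cyclin Ccnd1 at 131, 111 and 130 CPM late against 52.9 to 109 CPM early and Mycn at 55.1, 69.1 and 56.9 CPM against 33.4 to 45.4 CPM. Ccnd2 rose by 1.26, a call lost without 2iL day 7 (adjusted p = 0.108), SL day 1.5 (0.0761), SL day 1 (0.0528) or SL day 7 (0.0983). Myc fell by 1.49. Of 25 Hox genes 11 rose (8 without SL day 1) and 2 fell (1 without any early library or 2iL day 7), at low levels. Among those that rose were Hoxa2 (12.2, 3.85 and 6.28 CPM late) and Hoxb9 (7.34, 5.81 and 5.32 CPM). Glycolysis and hypoxia genes were split, with 3 of 18 up (5 without SL day 1.5) and 4 down, beside 27.9% up and 25.5% down over all genes tested. The glucose transporter Slc2a3 rose by 1.36 and Vegfa by 1.94, while Pfkp fell by 2.15 and Pkm was at 1950, 2060 and 2340 CPM late against 1440 to 3090 CPM early. Of 8 transcripts that track RNA handling 2 rose (1 without SL day 1 or SL day 1.5) and 2 fell, near the same shares over all genes. Malat1 rose by 1.22, and mt-Nd1 fell to 727, 867 and 562 CPM from 1560 to 2270 CPM. The part of these transcripts in the other results was not tested.

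The largest falls, by the same rule as the largest rises, were in Arhgef38, Ccdc38, Platr7, Atp1a4, Gm13128, Catip, Bhmt and Accsl. Platr7, a noncoding RNA of ESCs, was at 15.4, 17.4, 8.56 and 6.1 CPM early and at 0.096, 0.27 and 0.0506 CPM late (-6.22 ± 0.51, adjusted p = 0.00035). Arhgef38 had 344 reads over the early libraries and 2 over the late ones, a ratio of 142 (95% counting interval 39 to 1180). Catip was at 44.3, 12.7, 4.92 and 1.57 CPM early and at 0.048, 0.338 and 0.0506 CPM late. All early values of these 3 genes lay above all late ones, which the rule for naming them required.

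Days 2.5 and 3 place the changes in time. Against the same early libraries, 5992 of 15410 genes differed at days 2.5 and 3 (38.9%), 19.6% of all tested higher and 19.2% lower. Between these days and the late ones 4746 differed (30.8%), 15.6% higher and 15.2% lower. Naive factors had changed by then, with 13 of 16 down at days 2.5 and 3 and 1 that fell further. Matrix genes changed in both intervals, with 7 of 19 up at days 2.5 and 3 and 10 up from there to late. Mesenchymal transition genes had 4 up and 3 down at days 2.5 and 3, then 9 up. Of the 10 paraxial and mesenchyme genes 3 rose in the first interval and 8 in the second. For BMP genes the counts were 2 up and 2 down, then 7 up. For antagonists and targets of Nodal and Activin they were 7 up and none down, then 1 up and 1 down. The 2 comparisons share the libraries of days 2.5 and 3, and both share libraries with late against early.

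Single genes ordered in the same way. At day 3 Acta2 stood at 1.5 CPM from 2iL and 1.59 CPM from SL, Tagln at 7.61 and 8.46 CPM, and Col3a1 at 0.0485 and 0.191 CPM. Cdh2 and Smad3 were by then at 55.8 and 41.8 CPM and at 46.3 and 48.2 CPM. Il17rd from SL climbed through 95, 140 and 193 CPM at days 2, 2.5 and 3 to 226 and 274 CPM. From 2iL it jumped from 137 CPM at day 2.5 to 402 CPM at day 3. Mest in 2iL went from 417 to 2040 CPM, and Pou5f1 from 469 to 169 CPM, between the same days. The 2iL library of day 3 thus stood apart from that of day 2.5 for these genes.

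The day at which a gene first passed the midpoint between its early mean and its late level was taken for each medium. From 2iL, 37.6% of 3607 genes that rose passed at day 3 and 35.2% at day 7, with no library between. From SL, with 3585 genes, the share was 18.4% on each of days 2 and 2.5, 22% on day 3, 37% on day 5 and 3.18% on day 7. Genes that fell passed at day 3 in 38.4% of 3363 cases from 2iL and in 29% of 3350 cases from SL. Before day 2 the shares were at most 1.03%, which the choice of days 1 and 1.5 as the early group fixes in part. The share on day 7 from SL is fixed in part too. Day 5 counts towards the late level, and it had to lie outside the early values. With a pseudocount of 0.1 in place of 0.5 CPM the shares of genes that rose were 37.1% at day 3 from 2iL and 35.3% at day 5 from SL.

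**Figure D4:**
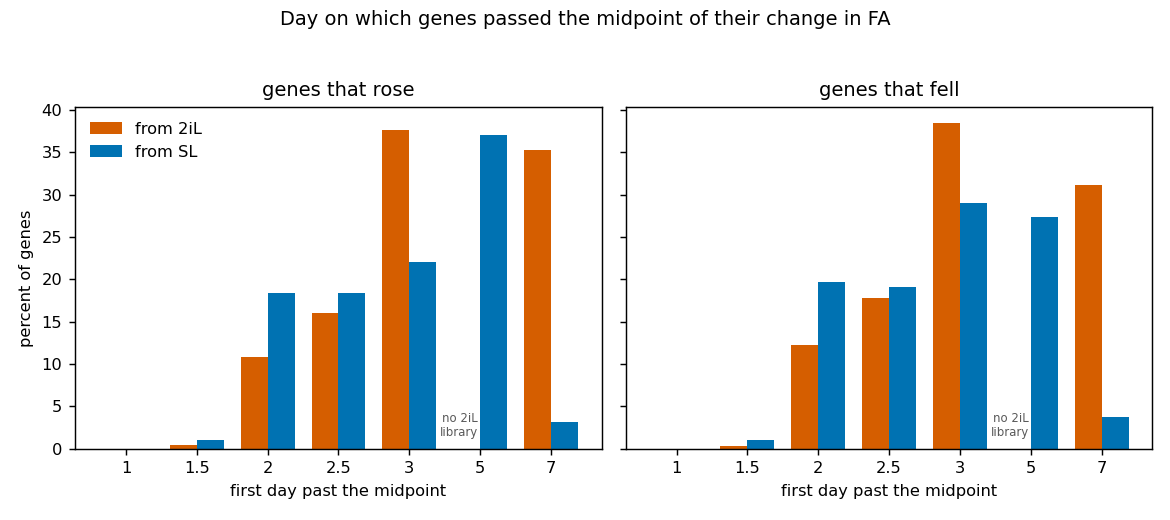
Percent of genes whose log2(CPM + 0.5) first passed the midpoint between the early mean and the late level on each day in FA, from 2iL (orange) and SL (blue), for genes that rose (left) and fell (right). From SL 37% of the genes that rose passed at day 5 and 3.18% at day 7, and from 2iL there is no day 5 library. The small share at day 7 is fixed in part, since day 5 belongs to the late group.

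The change from early to late was next set against the same change in N2B27 without Fgf2 and ActivinA. Of 15891 genes 413 differed in their change (2.6%), with 192 higher in FA (1.21%) and 221 lower (1.39%). ERK feedback genes stood out by count, with a higher change in FA for 6 of 16 and a lower one for none. Of the 6, Etv1 and Etv4 fell within FA (-0.80 and -1.18). Il17rd was at 311, 226 and 274 CPM in late FA and at 28.6, 37, 46.6 and 45.7 CPM in late N2B27 (2iL days 5 and 7, then SL days 5 and 7). In early N2B27 it was at 45.5 to 61.6 CPM. The difference of changes was 2.52 ± 0.30 (adjusted p = 0.00051). Spry1 was at 37 ± 2.64 CPM (SD, n = 3) in late FA and 8.31 ± 2.26 CPM (SD, n = 4) in late N2B27, a difference of 1.92. Neither overlapped between the late libraries of both media.

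Nodal, which fell within FA (-0.60), was at 27.5, 56 and 34.5 CPM in late FA and at 1.77, 2.4, 4.67 and 6.71 CPM in late N2B27. The difference of 2.96 was lost without 2iL N2B27 day 7 (adjusted p = 0.0503), SL FA day 1.5 (0.057) or SL FA day 1 (0.057). Nanog, at 5.76, 12.6, 17.6 and 27.7 CPM in late N2B27, differed by 3.41 but did not pass (adjusted p = 0.061). Col14a1, a fibril-associated collagen, had the largest difference, 6.64 ± 0.55 (adjusted p = 1.3e-05), with 17.8, 5.14 and 13 CPM in late FA and at most 0.141 CPM in late N2B27. Lama1, a chain of basement membrane laminin, was lower in FA, at 134 ± 23.1 CPM (SD, n = 3) against 3770 ± 1710 CPM (SD, n = 4). Its difference of -4.59 was lost without any 1 of several libraries, among them SL FA day 1.5 (-4.37, adjusted p = 0.0502) and 2iL N2B27 day 1.5 (-4.15, adjusted p = 0.07), and without the block (adjusted p = 0.16). Endoderm genes had a lower change in FA in 6 of 17 cases and a higher one in 1. Late N2B27 libraries carried Ttr at 16.8, 56.1, 49.4 and 70.2 CPM, against at most 4.12 CPM in late FA. The part of these endoderm genes in the differences was not tested.

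Against embryoid bodies in serum 204 genes differed in their change (1.28%), with 153 higher in FA (0.963%) and 51 lower (0.321%). T was at 345, 68.3, 41.2 and 52.6 CPM in late EB and at 3.74, 9.39 and 8.71 CPM in late FA, a difference of -5.51 ± 0.83 (adjusted p = 0.0038). Plau (urokinase), a protease that activates plasminogen, was at 10.2, 20.2 and 14.5 CPM in late FA and at 0.301 to 0.883 CPM in late EB (5.28 ± 0.57, adjusted p = 0.00039). The change of Cdkn2b was higher in FA by 4.04 (adjusted p = 0.0011), with at most 1.21 CPM in late EB. Col3a1 reached 0.401 to 4.78 CPM in late EB and 2.22 to 19.2 CPM in late N2B27, against 55.7 to 551 CPM in late FA, but its change passed neither test (adjusted p = 0.19 against N2B27 and 0.077 against EB). Acta2 passed neither (adjusted p = 0.84 and 0.5), with 94.2, 267, 53.2 and 112 CPM in late N2B27 and 2.96 to 58.8 CPM in late EB. Both comparisons use the same FA libraries and are not independent.

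**Figure D5:**
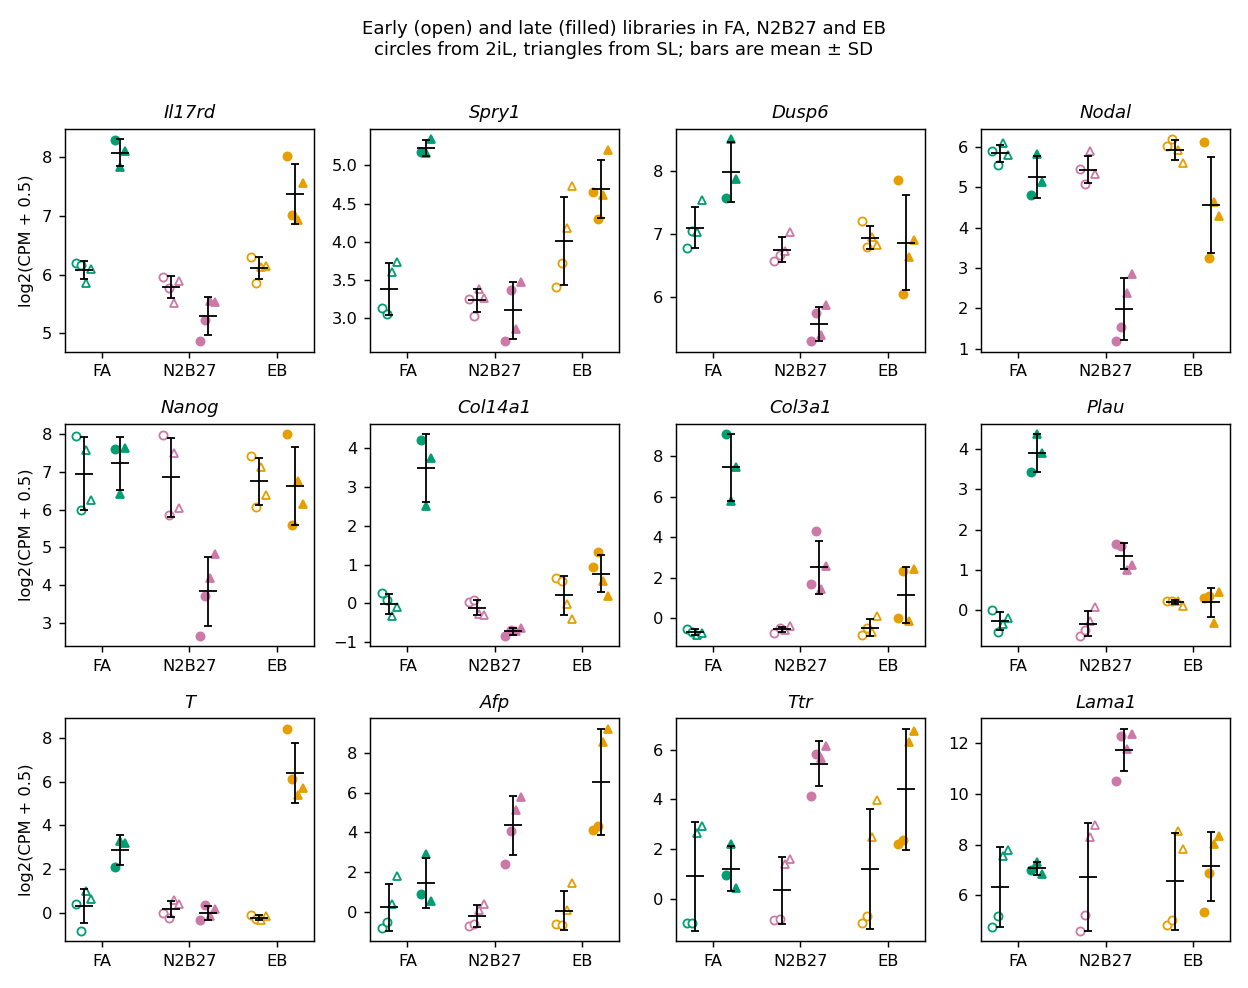
Early (open) and late (filled) values of 12 genes in FA, N2B27 and EB as log2(CPM + 0.5), with circles for 2iL and triangles for SL and bars for mean ± SD. Il17rd stood at 226 to 311 CPM in late FA and at 28.6 to 46.6 CPM in late N2B27, and T was highest in late EB.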

How the data were processed

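Total RNA was depleted of ribosomal RNA and made into strand-specific libraries, 1 per starting medium, condition and day. Per the study's methods, the authors trimmed the reads with TrimGalore, aligned them to the mouse genome (GRCm38, mm10) with TopHat2 and counted them per Ensembl gene with featureCounts. The deposited values are raw read counts per gene for 35372 genes, with no normalization. Rows without a gene symbol (435, at most 0.0014% of reads) were not removed before the filter on low counts. Here, edgeR 4.0.16 in R 4.3.3 was run with TMM factors, its filter on low counts and the quasi-likelihood test, with starting medium as a block. P-values were adjusted by Benjamini-Hochberg over all genes tested, at a threshold of 0.05. Late minus early changes of FA, N2B27 and EB were compared in 1 fit of 23 libraries, and days 2.5 and 3 in 1 fit of 13. DESeq2 1.42.0, no filter, no block, other scaling and each library left out were alternatives. Reads were counted without molecular identifiers, so counting intervals cover counting error only, and 3 reads correspond to 0.144 to 0.203 CPM in the 7 libraries. No 2 libraries within the early FA group or within the late FA group were copies of each other, and other pairs were not compared. The named genes were the 8 largest rises and falls among called genes without overlap and with a mean of at least 5 CPM. Named too were leading members of 32 gene lists, and the 4 highest and lowest differences between cultures. The comparison and the list members were chosen with earlier results of these data known. The difference between cultures of 1 gene in these counts is not reported here. The fitting code was tested on simulated data.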

Additional observations from a re-analysis of the deposited data

Results flagged for a closer look

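Among the 4 early FA libraries, 8 of the 74 genes tested had 1 library far from the other 3 by Dixon's ratio, where chance gives about 5% of tests. Early libraries at 1.5 days from SL were the distant ones for Acta2 (0.108 CPM, others 0.0586 to 0.0635), Actc1 (0.054 CPM, a single read, others at 0), Vim (203 CPM, others 166 to 171), Cer1 (1.13 CPM, others at most 0.0635) and Mixl1 (1.51 CPM, others 0.443 to 0.528). Tnc was low at day 1.5 from 2iL (0.0633 CPM, others 0.293 to 0.324) and Twist1 at day 1 from 2iL (2.16 CPM, others 2.99 to 3.1). Postn had its single early read at day 1 from SL (0.0586 CPM). For the genes at a few reads these gaps are of the size of single reads.

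The change from early to late differed between FA and N2B27 for 34 of the genes named or listed here, by a test of the difference itself, in log2 units with positive values for a higher change in FA. Of these, 10 kept the call under all 28 alternatives. Endoderm and liver genes had lower changes in FA, with Ihh at -6.32, Slc28a2 at -5.97, Ugt2b34 at -5.97, Ttr at -5.91, Afp at -4.70, Hnf4a at -4.24, Sox17 at -3.99, Gata6 at -3.81 and Foxa1 at -2.42. Basement membrane genes followed, with Lama1 at -4.59, Col4a1 at -4.25, Sparc at -2.69 and Lamc1 at -2.63. The receptors Fgfr4 and Lifr differed by -3.39 and -2.80. Higher changes in FA were found for genes of Fgf and ERK signalling, with Spry2 at 1.24, Spry1 at 1.92, Dusp6 at 1.97, Etv1 at 2.41, Etv4 at 2.45, Il17rd at 2.52 and Fgf17 at 4.0. Nodal and its effector Foxh1 differed by 2.96 and 2.33, the zinc finger factor Zic5 by 2.22, and the epithelial genes Cldn4 and Sfn by 1.70 and 3.01. Of these, Etv1, Etv4 and Nodal fell within FA (-0.80, -1.18 and -0.60). The difference of Etv4 was lost in 13 of the fits that left out 1 library. Trh differed by 2.04, Slc7a3 by 3.07, Penk by 4.06, Kcnj3 by 4.09, Gxylt2 by 5.89 and Col14a1 by 6.64.

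Between FA and EB the change differed for 19 such genes. Of 18 tried under all 28 alternatives (Car9 was not), 6 kept the call. On leaving out 1 of the 23 libraries the call was lost in 22 fits for Apoc2, 14 for Ccng1 and 8 for Aqp3. Changes were lower in FA for Afp (-6.63), T (-5.51), Apoc2 (-5.13), Aqp3 (-4.08), Foxa1 (-3.57), Sall4 (-1.03) and Spred2 (-0.75). Cell cycle genes had higher changes in FA, with Ccng1 at 0.85, Mycn at 1.15, Cdkn2a at 3.07 and Cdkn2b at 4.04. Also higher were the changes of Cldn4 (1.87), Tcf15 (2.34), Car9 (3.22), Col5a2 (3.65), Anxa1 (4.45), S1pr3 (4.74) and Plau (5.28). Of these, Tcf15 and Car9 fell within FA (-2.07 and -1.86). C1qtnf3 differed by 9.94, a fitted value that depends on the prior count, since late EB libraries had no read of it.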

How the results depend on the processing

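Late against early FA gave 4049 rises and 3695 falls, and 3666 and 3309 without the replicate block for starting medium. DESeq2 gave 4073 and 3877, and no filter gave 4172 and 3943. With SL libraries alone the counts were 2520 and 2079, with fewer libraries in the fit, and Cubn turned from 0.09 to -2.42 (adjusted p = 0.041). Leaving out 1 library gave 2919 to 4225 rises and 2503 to 4144 falls. For days 2.5 and 3 against early the ranges were 2183 to 3268 and 2074 to 3330, and for late against days 2.5 and 3 they were 1429 to 2687 and 1096 to 2867, with 1435 falls without the block. The interaction gave 0 to 31 calls on leaving out 1 library, 24 with no filter and 196 by DESeq2, and could not be fitted without 2iL day 7. For FA against N2B27, leaving out 1 library gave 60 to 261 genes higher and 59 to 375 lower, the lowest of each without SL FA day 1. DESeq2 gave 423 and 536, the fit without the block 105 lower, the fit without the 2iL day 5 libraries 387 lower, and day 7 alone, an alternative chosen after seeing the data, 408 and 607. For FA against EB the ranges were 51 to 175 and 10 to 57, the lowest without SL FA day 1 and without 2iL FA day 7. DESeq2 gave 350 and 230, and day 7 alone 113 lower. The cause of these shifts was not tested. Of 244 called genes named or listed for late against early, 169 kept their call under all 15 alternatives. The same replicate numbers in different groups mark no shared sample, so only the starting medium could serve as a block. With 1 library per medium and day, and 1 late library from 2iL, the spread within a medium is known only across days. Genes with under 3 reads in a library cannot be ordered there.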
